A study of Mus musculus with 32 samples.

Results

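Pitx1, Pax7, Pax3, Myf5, Myod1, Myog, Myf6 and Tbx15 are 8 genes of transcription factors that build, renew or pattern muscle of the head and limb. They were taken by symbol, not by a measured value, though with earlier results of these data known. All 8 were found among the 24421 gene symbols of the count table. The muscle libraries are labelled for extraocular muscle (EOM, which turns the eye) and tibialis anterior (TA, a muscle of the lower leg). Those of the brainstem are labelled for oculomotor neurons (CN3, which drive most eye muscles) and abducens motor neurons (CN6, which drive the lateral rectus), but they also hold RNA of other cells. Mice were albino B6(CG)Tyr(c-2J)/J, which carries the c-2J mutation of tyrosinase, and pigmented C57BL/6, with 4 libraries labelled for every strain and tissue and 32 in all. The series is about nystagmus, an involuntary oscillation of the eyes, in the albino strain. No treatment, time, age or sex is given, and separate animals are not stated, so p-values measure only how these libraries vary, which may be technical.

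Myf5, Myod1, Myog and Myf6 encode the 4 myogenic regulatory factors, basic helix-loop-helix proteins that pair with E proteins and bind the E-box, CANNTG, in genes of muscle. Myf5 and Myod1 commit cells to the muscle lineage, Myog drives the fusion and differentiation of myoblasts, and Myf6 (MRF4) is the member that adult fibres keep at the highest level. Pax3 and Pax7 act upstream of them in the trunk and limb, and Pax7 marks satellite cells, the stem cells of adult muscle. Eye muscles form in the head without Pax3. Pitx1 is best known from the hindlimb and the first branchial arch, and Tbx15 from the skeleton of the head and limb and from fast glycolytic fibres.

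The promoters of Myog, Myf5 and Pax7 are shown because only these 3 of the 8 genes were matched in the promoter set used. All 3 were called higher in EOM than in TA in both strains, as was Pitx1, which was not matched. The windows are 300 bases each, 250 before and 50 after the start in RefSeq (GRCm38.p6, the assembly of mm10). Capitals mark E-boxes, CANNTG, which read the same on both strands; the Myog window has CACATG from 138 bases and CAGTTG from 12 bases before the start, and at least as many occur in 39.6% of 32851 such windows. The Myf5 and Pax7 windows have 0, while 72.3% of all windows have at least 1. The Pax7 window lies inside the gene as GENCODE places it (139737062 to 139833528, minus strand). By that annotation it is not upstream of the gene start. A match is a stretch of letters and not a shown binding site.
Myog, chr1:134289754-134290053, plus strand: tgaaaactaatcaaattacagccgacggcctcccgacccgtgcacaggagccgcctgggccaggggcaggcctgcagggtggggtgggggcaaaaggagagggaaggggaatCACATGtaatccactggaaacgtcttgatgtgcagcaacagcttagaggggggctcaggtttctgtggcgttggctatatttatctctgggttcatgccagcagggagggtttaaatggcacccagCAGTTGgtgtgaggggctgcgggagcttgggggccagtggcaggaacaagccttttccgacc
Myf5, chr10:107486085-107486384, minus strand: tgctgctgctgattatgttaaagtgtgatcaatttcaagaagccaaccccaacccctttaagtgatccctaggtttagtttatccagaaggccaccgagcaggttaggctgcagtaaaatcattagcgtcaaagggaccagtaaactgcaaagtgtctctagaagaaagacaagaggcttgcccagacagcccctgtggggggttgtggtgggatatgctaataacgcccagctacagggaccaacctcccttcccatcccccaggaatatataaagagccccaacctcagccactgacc
Pax7, chr4:139832919-139833218, minus strand: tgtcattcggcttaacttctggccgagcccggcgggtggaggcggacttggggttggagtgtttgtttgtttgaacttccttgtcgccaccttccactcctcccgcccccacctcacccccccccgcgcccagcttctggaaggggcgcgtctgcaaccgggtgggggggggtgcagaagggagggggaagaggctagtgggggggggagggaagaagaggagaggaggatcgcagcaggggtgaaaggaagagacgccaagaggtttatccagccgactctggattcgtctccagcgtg

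The kind of tissue was first checked against the labels with marker genes, in CPM, a gene's count scaled to the library total. In 24 of the 32 libraries the markers fitted the label, and these give every test below, with 2 albino and 4 C57BL/6 libraries for each tissue. In the 8 others, all albino, they did not. The libraries labelled albino EOM 1, EOM 2, TA 1 and TA 2 carried brain genes, and those labelled albino CN3 3, CN3 4, CN6 3 and CN6 4 carried muscle genes. Ckm, the muscle creatine kinase, had 5462 and 5320 CPM in the libraries labelled albino CN3 3 and 4 and at most 0.218 CPM in those labelled albino EOM 1 and EOM 2; C57BL/6 EOM had 4279 to 4826 CPM. Values of these 8 libraries are given beside the tests as those of libraries with markers of EOM, TA or brain, and results with them grouped by their markers are named where they differ. The library labelled albino CN6 4 had more of the extraocular muscle markers Myh13 (94.0 CPM) and Myh15 (13.7 CPM) than other albino libraries with TA markers (19.5 to 24.9 and at most 1.47 CPM). Its counts over all genes also differed more from theirs than theirs did from each other. It is thus a less certain TA library. Library totals were 18544334 to 44254021 counts. The fast fibre list (11 genes) summed to 77690 to 82740 CPM in albino EOM, 71740 to 79700 CPM in C57BL/6 EOM, 178900 to 184900 CPM in albino TA and 171700 to 180100 CPM in C57BL/6 TA. The TMM factors, which scale libraries on the bulk of genes, were 1.24 to 1.36 in EOM and 0.766 to 0.794 in TA. Fold changes use that scale and CPM does not, so a gene can have a higher CPM in EOM and a negative log2 fold change.

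All 8 genes were read in every muscle library except Pitx1, which had 0 counts in the library labelled albino CN6 4. Per kb of exon, Tbx15 was the most abundant in all muscle groups and Myf6 came next. Albino EOM had Tbx15 at 196 CPM per kb, Myf6 at 93.6, Myog at 19.9, Myod1 at 12.2, Pitx1 at 2.76, Myf5 at 1.79, Pax7 at 0.663 and Pax3 at 0.0352. In C57BL/6 EOM the levels were 266 CPM per kb for Tbx15, 95.1 for Myf6, 13.6 for Myog, 7.17 for Myod1, 2.81 for Myf5, 1.69 for Pitx1, 0.724 for Pax7 and 0.0494 for Pax3, and no neighbours in this order overlapped. The strains thus had the same order in EOM but for Pitx1 and Myf5. In albino TA the last 2, Pitx1 at 0.109 CPM per kb and Pax3 at 0.101, overlapped. In C57BL/6 TA Myod1 at 10.2 CPM per kb stood above Myog at 1.46, and Pitx1 was last at 0.061, while the neighbours Myf5 at 0.406 and Pax7 at 0.266 overlapped.

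**Figure D1:**
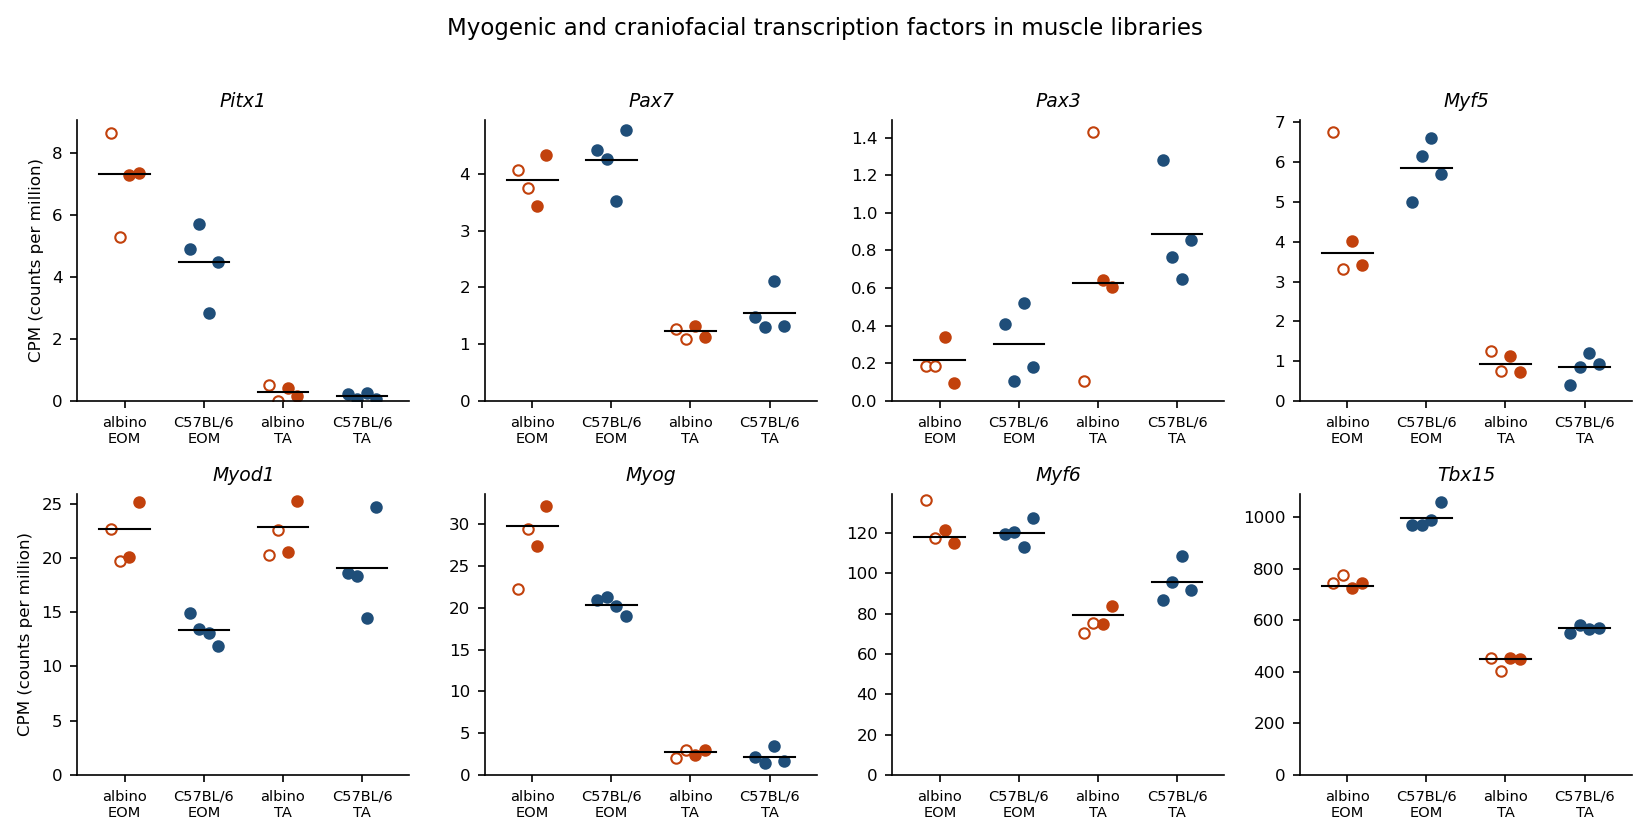
CPM of the 8 genes (y axis, from 0, a scale of its own for each gene) in albino EOM, C57BL/6 EOM, albino TA and C57BL/6 TA. Each point is a library, filled where its label and markers agree and open for the 4 albino libraries labelled CN3 or CN6 that carry markers of the muscle shown; the bar is the mean of the filled points. In CPM Pitx1, Pax7, Myf5, Myog, Myf6 and Tbx15 stand higher in EOM, though Myf6 and Tbx15 were not called higher by the test on the TMM scale. Pax3 is lower in EOM apart from an open point at 0.105 CPM in TA, and Tbx15 is lower in albino than in C57BL/6 in both muscles.

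The first comparison asks how eye muscle differs from limb muscle. In C57BL/6, EOM had higher Pitx1, Pax7, Myf5 and Myog and lower Pax3, Myod1 and Myf6 than TA, and Tbx15 was not called. Thus 4 of 8 genes were called higher and 3 lower by edgeR's quasi-likelihood test at an adjusted p under 0.05, beside 41.4% higher and 34.6% lower of all 15670 genes tested, so the counts are near the background and say nothing particular about the 8 genes. In albino mice 4 were higher and 2 lower, beside 30.4% and 28% of all genes. Where an albino library is left out of a test, its group keeps 1 library, which is assumed to vary like the other groups of the fit, so such calls, lost or gained, are weak checks. With the albino libraries grouped by their markers, each member kept its direction and call in both strains. The same test then gave an adjusted p in albino of 5.53e-04 for Pax7, 0.00226 for Pax3, 4.35e-04 for Myf5 and 1.45e-04 for Myod1. With all 32 libraries as labelled, Pitx1 alone stayed called in C57BL/6 and no member in albino mice. All 8 passed the filter on low counts. Their median log2 fold change was 0.48 in albino and 0.40 in C57BL/6 (0.10 and 0.13 over all genes tested). In tissue RNA, fewer cells of a type and less RNA in each cell cannot be told apart.

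Of the 2 patterning factors, Pitx1 (chromosome 13, 55825051 to 55836192, minus strand, mm10) differed most. It had 7.29 and 7.37 CPM in albino EOM and 0.416 and 0.162 CPM in albino TA. C57BL/6 EOM had 4.91, 5.72, 2.83 and 4.50 CPM and C57BL/6 TA 0.240, 0.0767, 0.260 and 0.0715 CPM. EOM and TA did not overlap in either strain, and the libraries labelled albino CN3 3 and 4, with EOM markers, had 8.64 and 5.29 CPM, also above every TA library. The TA side rests on few counts, 11 and 4 in albino TA and 6, 2, 6 and 2 in C57BL/6 TA, where 2 libraries lie under the limit of 3 counts, so the size of the fold is imprecise. The log2 fold change of EOM over TA was 3.93 ± 0.53 in albino (SE, adjusted p = 2.2e-05) and 4.06 ± 0.41 in C57BL/6 (adjusted p = 4.79e-07). Pitx1 shares exon bases with an annotated antisense gene, Gm47071, and a lincRNA, Gm28760, and the strand setting of the counting is not given in the sources used here, so reads from these genes cannot be told apart from its own.

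Tbx15 (chromosome 3, 99240381 to 99354259, plus strand) was close to even on the TMM scale and well above TA in CPM. Its CPM was 725 and 743 in albino EOM and 454 and 449 in albino TA, and 970, 970, 988 and 1060 in C57BL/6 EOM and 552, 584, 567 and 572 in C57BL/6 TA, with no overlap between the muscles in CPM. On the TMM scale the means (2 albino and 4 C57BL/6 libraries for each muscle) were 580 in albino EOM and 577 in albino TA, and 772 in C57BL/6 EOM and 733 in C57BL/6 TA. The log2 fold change of EOM over TA was 0.0061 ± 0.083 in albino (adjusted p = 0.954) and 0.074 ± 0.059 in C57BL/6 (adjusted p = 0.263), neither of them called. With library totals in place of TMM factors, where the median of all genes moved to 0.80 in albino and 0.86 in C57BL/6, Tbx15 was called higher in EOM, at 0.70 and 0.81, which is near that median. With offsets for GC content and exon length, where the median moved to −0.28 and −0.40, it was called lower, at −0.36 and −0.39. In C57BL/6 it was also called higher by DESeq2's Wald test (0.12, adjusted p = 0.0269), when the 2 groups were fitted alone (0.14, adjusted p = 0.0293) and without C57BL/6 EOM 3 (0.13, adjusted p = 0.0457; adjusted p from 8.01e-10 to 0.988 over its alternatives).

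The paired box genes Pax7 and Pax3 differed in opposite directions. Pax7 (chromosome 4, 139737062 to 139833528, minus strand) had 3.43 and 4.33 CPM in albino EOM and 1.32 and 1.13 CPM in albino TA, with 4.07 and 3.75 CPM in the libraries labelled albino CN3 3 and 4 and 1.26 and 1.09 CPM in those labelled albino CN6 3 and 4. C57BL/6 EOM had 4.42, 4.26, 3.52 and 4.77 CPM and C57BL/6 TA 1.48, 1.30, 2.12 and 1.32 CPM. In CPM the muscles did not overlap in either strain. On the TMM scale the C57BL/6 libraries did, with 2.59 to 3.84 in EOM and 1.67 to 2.77 in TA. The albino libraries did not, with 2.67 and 3.47 in EOM and 1.72 and 1.43 in TA. The log2 fold change was 0.96 ± 0.33 in albino (adjusted p = 0.0218) and 0.72 ± 0.23 in C57BL/6 (adjusted p = 0.0108). Offsets for GC content and length ended both calls (0.50, adjusted p = 0.221, in albino and 0.14, adjusted p = 0.604, in C57BL/6). The albino call was also lost without albino EOM 4 (0.76, adjusted p = 0.127), albino TA 3 (1.10, adjusted p = 0.0521) or albino TA 4 (0.83, adjusted p = 0.121), and when its 2 groups were fitted alone, though its value there was as large (0.97, adjusted p = 0.0503). Over the alternatives the adjusted p ran from 3.9e-04 to 0.708 in albino and from 3.12e-05 to 0.604 in C57BL/6.

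Pax3 (chromosome 1, 78101267 to 78197134, minus strand) went the other way at a very low level. It had 0.339 and 0.0963 CPM in albino EOM and 0.643 and 0.606 CPM in albino TA. C57BL/6 EOM had 0.409, 0.108, 0.522 and 0.184 CPM and C57BL/6 TA 1.28, 0.767, 0.649 and 0.858 CPM, and the muscles did not overlap in either strain. The library labelled albino CN6 3, with TA markers, had 0.105 CPM, inside the range of EOM. These values rest on 2 to 34 counts a library. Its log2 ratio was −2.17 ± 0.77 in albino (adjusted p = 0.0268) and −2.24 ± 0.52 in C57BL/6 (adjusted p = 0.00134). The albino call was lost with library totals (−1.47, adjusted p = 0.104) and without albino EOM 4 (−1.59, adjusted p = 0.167), albino TA 3 (−2.103, adjusted p = 0.0861) or albino TA 4 (−2.23, adjusted p = 0.0664), in a range of 0.00226 to 1 over its alternatives.

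Of the factors that commit cells to muscle, Myf5 was high in EOM and Myod1 in TA. Myf5 (chromosome 10, 107482908 to 107486134, minus strand) had 4.03 and 3.42 CPM in albino EOM and 1.14 and 0.728 CPM in albino TA. C57BL/6 EOM had 4.99, 6.15, 6.61 and 5.69 CPM and C57BL/6 TA 0.400, 0.844, 1.21 and 0.930 CPM. EOM and TA did not overlap, and the libraries labelled albino CN3 3 and 4 had 6.75 and 3.33 CPM, also above every TA library. On the log2 scale the change was 1.29 ± 0.39 in albino (adjusted p = 0.0115) and 2.05 ± 0.28 in C57BL/6 (adjusted p = 1.02e-05). The albino call was lost without albino EOM 3 (1.19, adjusted p = 0.0519) or albino TA 4 (0.99, adjusted p = 0.105), in a range of 4.35e-04 to 0.922.

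Myod1 (chromosome 7, 46376474 to 46379099, plus strand) had 20.1 and 25.2 CPM in albino EOM and 20.5 and 25.3 CPM in albino TA. C57BL/6 EOM had 14.9, 13.5, 13.1 and 11.9 CPM and C57BL/6 TA 18.6, 18.4, 14.5 and 24.7 CPM. In CPM the muscles thus overlapped in both strains, and the test called Myod1 lower in EOM on the TMM scale, where its means were 17.9 in albino EOM, 29.2 in albino TA, 10.3 in C57BL/6 EOM and 24.5 in C57BL/6 TA. The log2 fold change was −0.71 ± 0.20 in albino (adjusted p = 0.00706) and −1.25 ± 0.14 in C57BL/6 (adjusted p = 1.76e-06). The albino value was −0.016 with library totals (adjusted p = 0.944), and its call was lost without albino EOM 3 (−0.53, adjusted p = 0.075) or albino TA 4 (−0.58, adjusted p = 0.0648), in a range of 2.08e-05 to 1.

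Myog, the differentiation factor (chromosome 1, 134289989 to 134292548, plus strand), whose promoter window holds the E-boxes shown, was higher in EOM in both strains. It had 27.4 and 32.1 CPM in albino EOM and 2.42 and 2.99 CPM in albino TA. C57BL/6 EOM had 21.0, 21.2, 20.2 and 19.04 CPM and C57BL/6 TA 2.16, 1.46, 3.46 and 1.65 CPM, and no library of EOM came near one of TA. Its log2 ratio was 2.77 ± 0.28 in albino (adjusted p = 1.33e-06) and 2.50 ± 0.20 in C57BL/6 (adjusted p = 3.92e-08). Myf6 (chromosome 10, 107492853 to 107494737, minus strand), which lies 6718 bases upstream of Myf5 on the same strand, did not move with it. Its CPM was 121 and 115 in albino EOM and 75.0 and 83.9 in albino TA, and 120, 120, 113 and 127 in C57BL/6 EOM and 86.5, 95.7, 108 and 91.8 in C57BL/6 TA. In CPM every EOM library was above every TA library, but on the TMM scale the means were 93.2 in albino EOM and 101 in albino TA, and 93.0 in C57BL/6 EOM and 123 in C57BL/6 TA. On the log2 scale the change was −0.12 ± 0.11 in albino (adjusted p = 0.368) and −0.41 ± 0.080 in C57BL/6 (adjusted p = 3.2e-04). It turned to 0.57 (adjusted p = 1.82e-04) and 0.33 (adjusted p = 6.2e-04) with library totals, below the median of all genes on that scale, so the sign for Myf6 rests on the scaling.

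**Figure D2:**
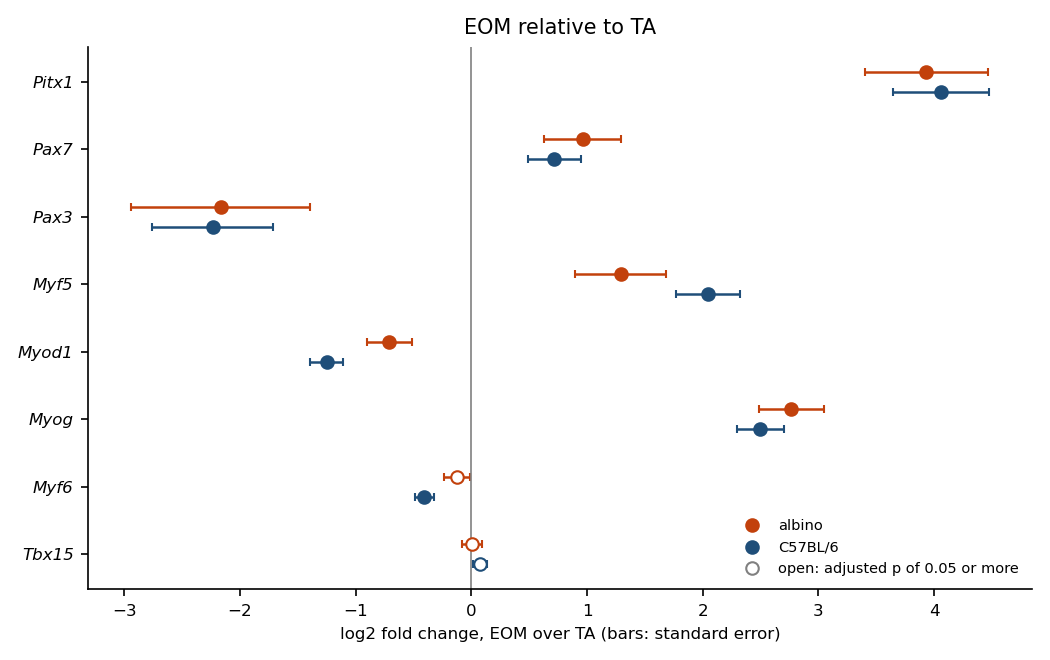
Log2 fold change of EOM over TA (x axis) for the 8 genes in albino (orange) and C57BL/6 (blue), on the TMM scale; bars are the standard error and open points have an adjusted p of 0.05 or more. Pitx1 lies at 3.93 and 4.06 and Myog at 2.77 and 2.50, while Pax3 lies at −2.17 and −2.24; Myf6 and Tbx15 change sign or call with the scaling.

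Lists of partners, relatives and targets of these factors are read against the shares of all genes called in EOM over TA, 30.4% higher and 28% lower in albino and 41.4% higher and 34.6% lower in C57BL/6. Of 19 regulators of head and eye muscle, 18 were tested. In albino mice 8 were called higher and 5 lower in EOM (median log2 fold change 1.11, against 0.10 over all genes), with Tbx1 at −3.97 ± 0.27. In C57BL/6 11 were called higher and 4 lower (median 1.36, against 0.13). Alx4, a homeobox gene of craniofacial mesenchyme, had 226 CPM in EOM and 0.262 CPM in TA in C57BL/6 (9.03 ± 0.24, adjusted p = 3.89e-13). Tbx1, a regulator of jaw and face muscle, was lower, at 3.97 CPM in EOM and 44.2 CPM in TA (−4.23 ± 0.20, adjusted p = 1.09e-10).

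Of 16 limb and trunk regulators, 15 were tested. In albino mice 4 were higher and 3 lower in EOM (median 0.52), with Lbx1 at −7.06 ± 0.36, and in C57BL/6 7 were higher and 4 lower (median 0.26), counts near or under those shares of all genes. Lbx1, which guides muscle precursors into the limb under the control of Pax3, had 0.0638 CPM in C57BL/6 EOM and 17.1 CPM in C57BL/6 TA (−8.57 ± 0.30, adjusted p = 5.75e-12), and Sim1 followed it at −7.68 ± 0.33. Prrx2 and Tbx18, genes of mesenchyme, were higher in C57BL/6 EOM at 2.88 and 1.43, where the fibroblast and tendon list summed to 5122 to 5798 CPM, against 464 to 663 CPM in C57BL/6 TA; its part in these results was not tested.

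Among 23 partners and inhibitors of the myogenic factors, 22 were tested, with 7 higher and 6 lower in albino EOM (median 0.23) and 14 and 6 in C57BL/6 EOM (median 0.62); the albino counts are at the share of all genes (30.4% and 28%). The inhibitors Id2 and Twist1 were higher in C57BL/6 EOM, at 2.34 ± 0.22 and 2.22 ± 0.20, and the partner Mef2c (−0.90 ± 0.069) and the repressor Bhlhe41 (−1.27 ± 0.072) were lower. Of 19 satellite cell genes, all tested, 8 were higher and 3 lower in albino EOM (median 0.25) and 12 and 2 in C57BL/6 EOM (median 0.61), beside 30.4% and 28% of all genes in albino and 41.4% and 34.6% in C57BL/6. Notch2, a receptor that keeps satellite cells quiescent, was at 1.40 ± 0.15 in albino and 2.30 ± 0.11 in C57BL/6, and Vcam1, a surface protein of these cells and of vessels, at 1.40 ± 0.22 and 2.098 ± 0.16. Of 20 targets and genes of denervated muscle, 18 were tested, with 10 higher and 3 lower in albino EOM (median 0.88) and 12 and 3 in C57BL/6 EOM (median 1.04), beside the same shares. The acetylcholine receptor subunits Chrna1, Chrnd and Chrne, known targets of myogenic factors, were higher by 3.27, 2.38 and 1.43 in albino and 2.87, 2.61 and 1.55 in C57BL/6, and the embryonic myosin Myh3 had 2285 CPM in albino EOM and 7.41 CPM in albino TA, and 2794 CPM in C57BL/6 EOM and 9.24 CPM in C57BL/6 TA. With GC and length offsets the counts in C57BL/6 became 4 higher and 7 lower for partners and inhibitors, 6 and 8 for satellite cell genes and 5 and 7 for limb and trunk regulators. The balance of these 3 lists thus turned with that setting, while each list gene named above for EOM over TA kept its direction and call under all 3 other scalings tried.

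Markers of several other cells and of slow fibres also stood higher in EOM. Of all genes, 30.4% were called higher in albino and 41.4% in C57BL/6. The fast fibre list went the other way, with 10 of 11 genes lower in both strains, beside 28% and 34.6% of all genes. The endothelial list (6 genes) split, with 2 higher and 2 lower in albino and 3 and 2 in C57BL/6. The macrophage list (8 genes) summed to 618 to 731 CPM in albino EOM and 138 to 171 CPM in albino TA, and among C57BL/6 libraries to 502 to 621 CPM for EOM and 33.4 to 40.5 CPM for TA, with 8 of 8 genes called higher in both strains. The Schwann cell list (5 genes, 4 called higher in both strains) summed to 329 to 346 CPM in albino EOM and 43.6 to 45.1 CPM in albino TA, and among C57BL/6 libraries to 344 to 439 CPM for EOM and 42.8 to 70.2 CPM for TA. The slow fibre list (8 genes, 7 higher and 1 lower in both strains) summed to 3718 to 4091 CPM in albino EOM and 143 to 174 CPM in albino TA, and among C57BL/6 libraries to 3451 to 4285 CPM for EOM and 121 to 181 CPM for TA. These 3 lists did not overlap between the muscles in either strain. The cell cycle list (6 genes, 3 higher in albino and 6 in C57BL/6) summed to 8.38 to 11.5 CPM in albino EOM and 1.46 to 2.04 CPM in albino TA, and among C57BL/6 libraries to 8.02 to 12.5 CPM for EOM and 0.240 to 0.614 CPM for TA. The part of these cells in the differences of the 8 genes and of the lists, satellite cell genes included, was not tested.

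The genes that followed each member most closely over the 12 muscle libraries were found by Pearson r of log2 CPM, as a description over libraries that mostly split into EOM and TA. For Pitx1 they included Obsl1 and Isyna1 (r = 0.99 each), and for Myog they were Obsl1 (1.00), Rps6ka1 and Pdcd6 (0.99 each). For Myf5 they were Fgfr2, Plaa and Slit2 (0.99 each), and for Pax7 Sap130, Thada and Tmlhe (0.98 each). Pax3 went with Gdf11 (0.94), Rpp40 (0.92) and Uri1 (0.90), and Myod1 with Bap1 (0.93), G6pc3 (0.91) and Psmc4 (0.90). Myf6 went with Prkce, Pdzph1 and Rdh10 (0.96 each), and Tbx15 with Canx, Rcn2 and Tmem47 (0.99 each).

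The second comparison asks whether the albino muscle differs from the pigmented. In EOM, Myod1 and Myog were called higher and Tbx15 lower in albino mice, while Pitx1, Pax7, Pax3, Myf5 and Myf6 were not called. That is 2 of 8 higher and 1 lower, beside 16.7% and 17.5% of all genes tested (median log2 fold change −0.049 for the 8, 0.024 for all). In TA Tbx15 alone of the 8 was called, as lower, beside 12.5% of all genes called higher and 11.2% lower (median −0.073, against 0.036). With the albino libraries grouped by their markers the 3 calls in EOM stood, and in TA Myf6 was called lower beside Tbx15. With all libraries as labelled no member was called in either muscle.

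Tbx15 was the member that differed in both muscles. Albino EOM had 725 and 743 CPM and the libraries labelled albino CN3 3 and 4 had 745 and 775, against 970 to 1060 CPM in C57BL/6 EOM. Albino TA had 454 and 449 CPM and the libraries labelled albino CN6 3 and 4 had 454 and 406, against 552 to 584 CPM in C57BL/6 TA. No albino library reached the lowest C57BL/6 library of its muscle. The log2 fold change was −0.41 ± 0.073 in EOM (adjusted p = 6.38e-04) and −0.34 ± 0.073 in TA (adjusted p = 0.0037), with −0.38 ± 0.056 and −0.36 ± 0.056 when all 4 albino libraries of each muscle entered (adjusted p = 5.52e-05 and 1.25e-04). The last TA value includes the library labelled albino CN6 4, which also had more Myh13 and Myh15 than the other albino TA libraries. The call in TA was lost without albino TA 4 (−0.31, adjusted p = 0.0589; 2.61e-06 to 0.641 over its alternatives). The genotype difference itself did not differ detectably between EOM and TA (−0.068 ± 0.10, adjusted p = 0.745).

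Myod1 had 20.1 and 25.2 CPM in albino EOM, with 22.7 and 19.8 CPM in the libraries labelled albino CN3 3 and 4, against 11.9 to 14.9 CPM in C57BL/6 EOM. All 4 albino libraries were above all 4 of C57BL/6. Its log2 ratio was 0.79 ± 0.17 (adjusted p = 0.00245). It was not called with GC and length offsets (0.32, adjusted p = 0.257) or without albino EOM 4 (0.57, adjusted p = 0.0635), in a range of 2.01e-04 to 0.955 over its alternatives. In TA, where Myod1 was 20.5 and 25.3 CPM in albino and 14.5 to 24.7 CPM in C57BL/6, the value was 0.25 ± 0.17 (adjusted p = 0.314), and the difference between the muscles was 0.54 ± 0.24 (adjusted p = 0.189).

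Myog had 27.4 and 32.1 CPM in albino EOM, with 22.2 and 29.4 CPM in the libraries labelled albino CN3 3 and 4, against 19.04 to 21.2 CPM in C57BL/6 EOM. All 4 albino values lay above those of C57BL/6, but the call was marginal (0.58 ± 0.21, adjusted p = 0.0451). It was lost at a similar value with DESeq2 size factors (0.55, adjusted p = 0.0579) and library totals (0.55, adjusted p = 0.0537), with GC and length offsets (0.14, adjusted p = 0.747), and when any of the 6 EOM libraries was left out, at 0.53 to 0.60 without a C57BL/6 library, 0.71 without albino EOM 3 and 0.40 without albino EOM 4 (adjusted p from 0.00564 to 0.883 over its alternatives). In TA it was 0.31 ± 0.27 (adjusted p = 0.443), and it was called without C57BL/6 TA 3 (0.62, adjusted p = 0.0328; up to 0.903 over its alternatives).

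The other members were not called in albino muscle. Pitx1 had 7.29 and 7.37 CPM in albino EOM against 2.83 to 5.72 CPM in C57BL/6 EOM (0.73 ± 0.35, adjusted p = 0.13), and its value in TA was 0.86 ± 0.61 (adjusted p = 0.342). Myf5 had 4.03 and 3.42 CPM in albino EOM against 4.99 to 6.61 CPM in C57BL/6 EOM (−0.62 ± 0.32, adjusted p = 0.15), without overlap, but the library labelled albino CN3 3 had 6.75 CPM. It was called lower when the EOM libraries were fitted alone (−0.64, adjusted p = 0.0437; up to 0.475 over its alternatives). Myf6 was close to even in EOM (0.0034 ± 0.098, adjusted p = 0.985), and in TA it was at −0.28 ± 0.099 (adjusted p = 0.0532), with 75.0 and 83.9 CPM in albino against 86.5 to 108 CPM in C57BL/6. Myf6 in TA was called lower with the albino libraries grouped by markers (−0.32, adjusted p = 0.013), in 6 other alternatives too, without C57BL/6 TA 1 among them (−0.33, adjusted p = 0.0306), in a range of 0.0102 to 0.669. Pax7 was at −0.10 ± 0.27 in EOM and −0.35 ± 0.30 in TA, and Pax3 at −0.45 ± 0.72 and −0.52 ± 0.61, with standard errors too wide to read a direction. No member was called for a genotype difference that differed between EOM and TA, 0 of 8 beside 7.73% of all genes, and DESeq2's Wald test called none either. Myod1 alone of the 8 had an unadjusted p under 0.05 in edgeR's test, beside 3760 of all 15670 genes. That is no more than the share of all genes and says nothing particular about Myod1.

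**Figure D3:**
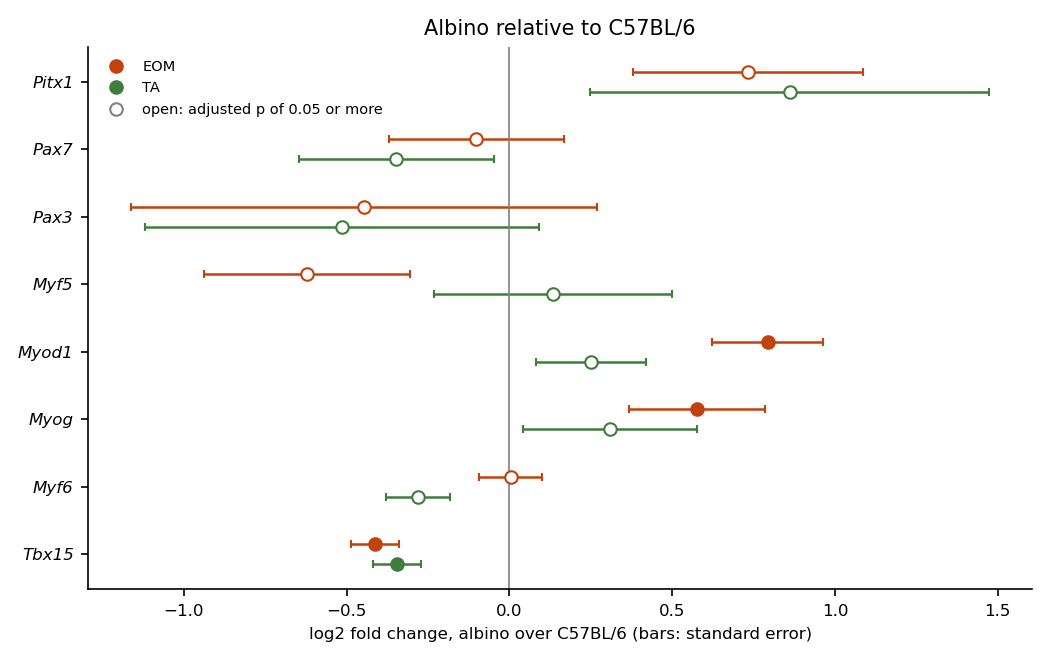
Log2 fold change of albino over C57BL/6 (x axis) for the 8 genes in EOM (orange) and TA (green), on the TMM scale; bars are the standard error and open points have an adjusted p of 0.05 or more. Filled points are Myod1 at 0.79 and Myog at 0.58 in EOM, and Tbx15 at −0.41 in EOM and −0.34 in TA.

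Among the partners and satellite cell genes, more were called lower than higher in albino EOM, where 16.7% of all genes were higher and 17.5% lower. Of 22 partners and inhibitors tested, 2 were higher and 9 lower (median −0.28, against 0.024), with Bhlhe41 at −1.14 ± 0.095 (25.3 CPM in albino and 56.9 CPM in C57BL/6), Mef2c at −0.79 ± 0.087 and the E proteins Tcf4 at −0.58 and Tcf12 at −0.64. Of 19 satellite cell genes 0 were higher and 6 lower (median −0.28), among them Met, the receptor for hepatocyte growth factor, with 18.9 CPM in albino and 50.5 CPM in C57BL/6 (−1.39 ± 0.12, adjusted p = 3.72e-06). Of 18 targets and denervation genes 1 was higher and 6 lower. The higher one was Cdkn1a, the cell cycle inhibitor that Myod1 induces, at 1.22 ± 0.16 in EOM (adjusted p = 6.71e-05) and 1.03 ± 0.17 in TA (adjusted p = 6.82e-04), while Mstn, which restrains muscle growth, was at −0.76 in EOM and −0.80 in TA. Head and eye regulators split 2 and 2 of 18 in EOM and limb and trunk regulators 1 and 2 of 15, at or under the shares of all genes. With GC and length offsets the partner count in EOM became 0 higher and 3 lower and the satellite count 0 and 2, with Bhlhe41 and Met still called and Mef2c, Tcf4, Tcf12 and Mstn not.

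In TA, where 12.5% of all genes were higher and 11.2% lower, the same lists had 5 higher and 3 lower of 22 partners and inhibitors, 2 and 3 of 19 satellite cell genes, 2 and 3 of 18 targets, 2 and 1 of 18 head and eye regulators and 2 and 3 of 15 limb and trunk regulators, most of them near those shares. Barx2, a homeobox partner of Myod1, had 7.55 CPM in albino TA and 3.40 CPM in C57BL/6 TA (1.12 ± 0.21, adjusted p = 0.00157), and Sim1 had 6.38 CPM in albino TA and 12.003 CPM in C57BL/6 TA (−0.92 ± 0.25, adjusted p = 0.0164). Other cells moved with strain as well. The macrophage list summed to 138 to 171 CPM in albino TA and 33.4 to 40.5 CPM in C57BL/6 TA. The fibroblast and tendon list summed to 1268 to 1314 CPM in albino TA and 464 to 663 CPM in C57BL/6 TA, and to 3898 to 4068 CPM in albino EOM and 5122 to 5798 CPM in C57BL/6 EOM. Snap25, a neuronal gene, was at 56.9 and 7.71 CPM in albino EOM and 5.87 to 34.2 CPM in C57BL/6 EOM. In TA it had 2.84 and 0.970 CPM in albino and 0 counts in all 4 C57BL/6 libraries, and was called higher (adjusted p = 0.019). Of the 10 genes of the brain neuron list it was the only 1 called in TA, with 9 not called (median log2 fold change 3.83). The sum of that list went the other way, with 541.4 to 550.4 CPM in albino TA and 596.1 to 643.5 CPM in C57BL/6 TA. The cell cycle list summed to 1.46 to 2.04 CPM in albino TA and 0.240 to 0.614 CPM in C57BL/6 TA, with 3 of 6 genes called higher. Their part in the results on the 8 genes was not tested.

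In the brainstem libraries, Pax7 and Pax3 were the members that could be read, and Tbx15 was tested at a trace. Pax7 is also a factor of the dorsal midbrain and Pax3 of the dorsal neural tube. Isl1, a defining gene of motor neurons, averaged 0.331 CPM in C57BL/6 CN3 and 1.16 CPM in C57BL/6 CN6, while neuronal Snap25 had 2578 to 2966 CPM in C57BL/6 CN3 and 3437 to 3936 CPM in C57BL/6 CN6. The macrophage list summed to 174.7 to 214.4 CPM in C57BL/6 CN3 and 168.3 to 175.5 CPM in C57BL/6 CN6. For the endothelial list these sums were 109.3 to 158.9 and 137.3 to 179.5 CPM. The libraries thus held more than motor neurons, and which cells gave the Pax7 and Pax3 reads was not tested. Pitx1, Myf5, Myod1, Myog and Myf6 did not pass the filter. Of these 5, Pitx1 reached 0.768 CPM in C57BL/6 CN3 2 and the others at most 0.261 CPM in any library with brain markers. Myf5 and Myf6 had 0 counts in all 4 C57BL/6 CN3 libraries, which allows up to 0.0977 CPM a library (3 counts, counting error only). Most low counts were even, so counts may not be independent and the limit may be higher.

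Pax7 had 11.1, 4.23, 31.5 and 16.2 CPM in C57BL/6 CN3 and 0.192, 0.561, 0.110 and 0.0502 CPM in C57BL/6 CN6. CN3 and CN6 libraries did not overlap, and those of CN3 spread over a wide range among themselves. The log2 fold change of CN3 over CN6 was 6.04 ± 0.84 (adjusted p = 5.1e-04), and it stayed called in all 18 alternatives (adjusted p from 2.82e-10 to 0.0248). Pax3 had 5.99, 0.678, 4.74 and 5.06 CPM in C57BL/6 CN3 and 1.34, 3.85, 2.22 and 2.23 CPM in C57BL/6 CN6 (0.73 ± 0.49, adjusted p = 0.301), and was called without C57BL/6 CN3 2, its lowest library (1.09, adjusted p = 0.0163; up to 1 over its alternatives). Tbx15 stayed at or below 0.647 CPM (0.75 ± 0.55, adjusted p = 0.339). Thus 1 of 3 members tested was called, beside 26% of all 16604 genes. Of the head and eye regulators 2 of 14 were called higher in CN3 and 6 lower, and of the limb and trunk regulators 3 and 3 of 14. Of all genes, 13.3% were called higher in CN3 and 12.7% lower.

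Between the strains no brainstem member was called: 0 of 3 in CN3, beside 0.247% of all genes (41 genes, 1913 at an unadjusted p under 0.05), and 0 of 3 in CN6, beside 0.0301% (5 genes, 1203 at an unadjusted p under 0.05). Albino CN3 1 and 2 had 16.6 and 6.19 CPM of Pax7, within the range of C57BL/6 CN3, and the libraries labelled albino EOM 1 and 2, which carry brain markers, 8.02 and 5.35 CPM (−0.45 ± 0.71, adjusted p = 0.852). Albino CN6 1 and 2 had 6.45 and 1.14 CPM, and the libraries labelled albino TA 1 and 2 had 1.77 and 8.24 CPM, all above the 0.0502 to 0.561 CPM of C57BL/6 CN6. On the log2 scale the change was 4.00 ± 0.97 (unadjusted p = 0.0012, adjusted p = 0.378). DESeq2's Wald test called it (adjusted p = 0.039), as did the fit without albino CN6 2 (4.77, adjusted p = 0.0295), in which albino CN6 is 1 library and the other groups supply the spread, in a range of 0.0295 to 1. Hoxb3, a hindbrain gene, also differed among these libraries. It was 2.61 CPM in albino CN6 1 and 20.8 CPM in albino CN6 2, and 21.3 and 11.6 CPM in the libraries labelled albino TA 1 and 2, against 23.0 to 31.4 CPM in C57BL/6 CN6 and at most 0.271 CPM in C57BL/6 CN3. The 2 of these 4 albino libraries with more Pax7 had less Hoxb3 than the other two, and the part of the dissected site in the Pax7 difference was not tested. Pax3 was at −0.60 ± 0.62 in CN3 (adjusted p = 0.742) and 0.40 ± 0.60 in CN6 (adjusted p = 0.912).

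**Figure D4:**
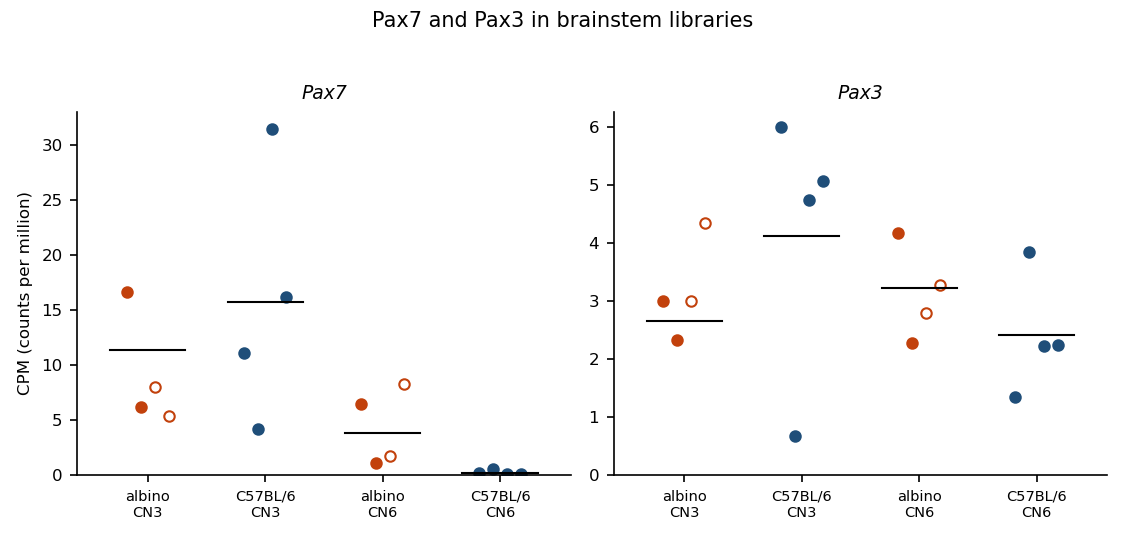
CPM of Pax7 and Pax3 (y axis, from 0) in albino CN3, C57BL/6 CN3, albino CN6 and C57BL/6 CN6. Each point is a library, filled where label and markers agree and open for the libraries labelled albino EOM 1 and 2 (drawn with CN3) and albino TA 1 and 2 (drawn with CN6), which carry brain markers; the bar is the mean of the filled points. Pax7 is 4.23 to 31.5 CPM in C57BL/6 CN3 and at most 0.561 CPM in C57BL/6 CN6, with the albino CN6 points from 1.14 to 8.24 CPM.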

How the data were processed

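Gene counts of 32 mouse libraries were used as the authors deposited them, in whole counts per gene symbol that were not normalized. RNA was extracted with column kits for fibrous or lipid-rich tissue, per the labels' protocols. Per the submitters' processing notes, reads were handled with Trimmomatic 0.33, FastQC, HISAT2 2.1.0, featureCounts and edgeR on mm10; the annotation, filters and strand setting are not given in the sources used here. Of the counts from 1 to 40, 72.7 to 82% were even in each library, so counts may not be independent molecules. The table held 27 date-like names with at most 0.309% of a library's counts.

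From the counts, edgeR 4.0.16 (R 4.3.3) was run on the 12 muscle and the 12 brainstem libraries whose markers fitted their labels, a fit for each. It used filterByExpr, TMM factors, the quasi-likelihood test and Benjamini-Hochberg adjustment over all genes tested, with a call at an adjusted p under 0.05. The procedure was tested on simulated data. CPM is the count scaled to the deposited library total. The members and gene lists were chosen with earlier results of these data known. From each list, up to 6 genes with the smallest adjusted p per comparison could be named, and for each member the 3 genes with the highest Pearson r. A few genes that this rule names are not reported here. Positions come from GENCODE vM21, which annotated 95.6% of symbols, and promoters from RefSeq. Alternatives were DESeq2 1.42.0, other scalings and filters, a replicate block, each library left out, and the albino libraries grouped as labelled or by markers; library totals without TMM factors and GC and length offsets were added after seeing the data.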

Additional observations from a re-analysis of the deposited data

Results flagged for a closer look

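In 9 of 62 groups of 4 to 10 libraries tested, the highest or lowest library stood far from the rest, its gap to the nearest one being over 0.829 of the whole range for 4 libraries. Chance flags about 1 in 20 groups. Where 3 of 4 libraries have 0 counts, however, any count in the remaining library sets a flag. The number flagged therefore cannot be set against that rate. Tbx15 at 406 CPM in the library labelled albino CN6 4 was the only such value in muscle, the lowest of 4 albino libraries with TA markers. The others were trace levels in brainstem. Pitx1 stood at 0.768 CPM in C57BL/6 CN3 2 and Myog at 0.261 CPM in C57BL/6 CN3 1. Myf5 stood at 0 CPM in albino CN3 1 and at 0.0548 CPM in C57BL/6 CN6 3, and Myod1 at 0.0598 CPM in albino CN6 2. Myf6 stood at 0.127 CPM in albino CN3 2, at 0.0299 CPM in albino CN6 2 and at 0.064 CPM in C57BL/6 CN6 1. The flags of Myog, Myod1 and Myf6, and of Myf5 in C57BL/6 CN6, came from groups with 0 counts in 3 of 4 libraries.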

How the results depend on the processing

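The tests called 9144 genes for EOM over TA in albino, 11898 in C57BL/6, 5357 for albino over C57BL/6 in EOM, 3722 in TA, 1211 for the difference of these, 4311 for CN3 over CN6, and 41 and 5 for albino over C57BL/6 in CN3 and CN6. In that order, leaving out a library gave 7420 to 8091, 11455 to 11643, 3214 to 5215, 1872 to 3440, 591 to 1351, 2856 to 4672, 6 to 55 and 4 to 228 genes. With all libraries as labelled, EOM over TA had 3 genes in albino and 4147 in C57BL/6, EOM 242, the difference 33, CN3 over CN6 14, and CN3 and CN6 0 each. With the albino libraries grouped by markers the difference had 1988 genes, CN3 383 and CN6 19. DESeq2's Wald test called 1896, 190 and 64 for these. GC and length offsets left 2272 in EOM, no filter gave 9 in CN6, and CN3 fitted alone gave 13. Same-numbered libraries correlated at 0.177 in albino muscle and 0.193 in albino brainstem, and differently numbered ones at −0.177 and −0.193. With 2 libraries a group these values are opposite by construction, so they cannot decide on pairing. In C57BL/6, same numbers gave −0.003 to 0.094 in muscle and −0.141 to 0.121 in brainstem. Different numbers gave −0.053 to 0.039 and −0.197 to 0.173. The numbers were not taken as pairs, though pairing is not excluded. A replicate block gave 20 genes in CN3 and ended the call of Myog in EOM (0.53, adjusted p = 0.118); under it Myf6 in EOM was −0.033, Myf5 in TA −0.033 and Pax7 in CN3 0.23.

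Most signs that turned belonged to values that were not called, and the cause was not tested. Library totals turned Myf6 in EOM over TA to 0.57 in albino and 0.33 in C57BL/6, and Myf6 in albino over C57BL/6 EOM to −0.023. GC and length offsets turned Tbx15 in EOM over TA to −0.36 in albino and −0.39 in C57BL/6, Myf6 in EOM to −0.18, Myod1 and Myog in TA to −0.15 and −0.071, and the Tbx15 difference to 0.037. DESeq2's Wald test and size factors put Myf6 in EOM at −0.021 each and EOM fitted alone at −0.0098. With libraries as labelled, the values in EOM were −0.25 for Pitx1, 0.090 for Pax7, 2.31 for Pax3, −0.21 for Myod1, −0.42 for Myog and −0.997 for Myf6; in TA they were −0.10 for Pitx1, 0.19 for Pax7, 0.20 for Pax3, −0.89 for Myf5, −0.75 for Myod1 and −0.69 for Myog, and the Pax7 difference was −0.10. Grouping by markers put the Pax3 difference at −0.25. With a library left out, Tbx15 in albino EOM over TA ran from −0.038 to 0.044. In albino over C57BL/6 EOM, Pax7 ran from −0.33 to 0.079, Pax3 from −1.56 to 0.11 and Myf6 from −0.070 to 0.053. In TA, Pitx1 ran from −0.0014 to 1.39 and Myf5 from −0.25 to 0.43. The difference ran from −0.66 to 0.73 for Pitx1, −1.05 to 0.62 for Pax3 and −0.042 to 0.42 for Myog. Pax7 in CN3 ran from −1.33 to 0.15, and in CN6 Pax3 ran from −0.085 to 0.77 and Tbx15 from −1.97 to 1.52. Depth limits Pax3 in muscle, Pitx1 in TA and every member but Pax7 and Pax3 in brainstem. Leaving out an albino library leaves its group with 1, assumed to vary like the other groups.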
